A study of Mus musculus with 16 samples.

Results

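H2AK119ub1 and H3K27me3 were compared in PCGF5-depleted mouse embryonic stem cells (ES) by setting the 7170 H2AK119ub1 peaks against the 10234 H3K27me3 peaks called by chromatin immunoprecipitation and sequencing (ChIP-seq) in these cells. A peak that shared at least 1 bp with a peak of the other mark was put in the class with both marks, and the remaining peaks in a class with their own mark alone. This gave 1977 H2AK119ub1 peaks with H3K27me3, 5193 H2AK119ub1 peaks alone, 1881 H3K27me3 peaks with H2AK119ub1 and 8353 H3K27me3 peaks alone. These 17404 peaks were part of 86279 in the 10 peak lists of the study, which profiled both marks in wild type and PCGF5-depleted ES and in neural precursor cells (NPC) derived from them, and Flag-tagged PCGF5 in wild type cells of both stages. The ES were of the 46C line, which carries a green fluorescent reporter in the neural gene Sox1. According to the methods of the study they were grown on feeder fibroblasts treated with mitomycin C, in medium with leukaemia inhibitory factor and the inhibitors CHIR99021 and PD0325901. The sample labels name the depleted cells by a short hairpin RNA against PCGF5, while the study also describes cells with a nuclease knockout grown from picked clones, so the kind of depletion in these libraries is uncertain. Wild type ES carried neither. Peak lists hold no RNA, so the depletion could not be checked in them.

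Each mark in each cell population was 1 library. No replicate error was available and no test between populations was made. Intervals are 95% intervals that cover the counting of peaks or genes only, and the sequencing depth was unknown. In bulk chromatin, fewer cells carrying a mark and less of the mark in each cell cannot be told apart, and a shared peak does not show both marks in the same cell.

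H2AK119ub1 is histone H2A that carries a single ubiquitin on a lysine of its tail, placed by the RING1A or RING1B subunit of Polycomb repressive complex 1 (PRC1). H3K27me3 is histone H3 with a lysine of its tail trimethylated, placed by the EZH1 or EZH2 subunit of Polycomb repressive complex 2 (PRC2). PCGF5 is 1 of the alternative PCGF subunits that define variants of PRC1. PRC2 can bind chromatin with H2AK119ub1 through JARID2 and AEBP2, and canonical PRC1 binds H3K27me3 through its CBX subunits. In ES both marks are known from CpG islands, which are stretches rich in the CG dinucleotide, at the promoters of silent developmental regulators.

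The following 300-base stretches are single examples from the classes and do not stand for their typical content. A GA or GGA repeat, searched as described below, was found in 4.47% to 12.8% of the peaks of a class. The first 4 lie in the middle of the highest-scoring peak of each class among those that touch no annotated untranslated region and whose sequence could be printed here, the fifth lies within the overlap of the marks at Lmx1b, and the last lies in the widest H2AK119ub1 peak without H3K27me3 outside promoters; the last 2 were chosen after their values were seen. Sequences are from the plus strand of NCBIM37 (the assembly behind mm9), 5′ to 3′, with each CG dinucleotide in capitals.
H2AK119ub1 with H3K27me3, chr6:114513900-114514199, intergenic: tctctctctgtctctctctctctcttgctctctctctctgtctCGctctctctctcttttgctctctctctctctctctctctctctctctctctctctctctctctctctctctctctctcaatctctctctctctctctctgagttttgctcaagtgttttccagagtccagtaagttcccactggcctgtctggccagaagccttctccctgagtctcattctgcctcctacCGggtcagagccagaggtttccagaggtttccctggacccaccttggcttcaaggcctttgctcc
H2AK119ub1 alone, chr1:24622255-24622554, promoter of Gm10925: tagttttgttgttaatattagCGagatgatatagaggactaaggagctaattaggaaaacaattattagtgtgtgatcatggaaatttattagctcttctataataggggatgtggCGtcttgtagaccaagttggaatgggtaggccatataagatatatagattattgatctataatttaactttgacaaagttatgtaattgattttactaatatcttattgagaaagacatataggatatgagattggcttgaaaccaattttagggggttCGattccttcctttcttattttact
H3K27me3 with H2AK119ub1, chr8:126138510-126138809, intron: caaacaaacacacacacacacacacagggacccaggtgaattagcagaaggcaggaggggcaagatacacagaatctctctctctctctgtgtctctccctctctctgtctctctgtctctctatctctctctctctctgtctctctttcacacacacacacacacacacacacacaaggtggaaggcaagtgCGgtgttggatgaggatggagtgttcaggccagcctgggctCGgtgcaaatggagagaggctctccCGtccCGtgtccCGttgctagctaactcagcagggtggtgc
H3K27me3 alone, chr16:63833247-63833546, intron of Epha3: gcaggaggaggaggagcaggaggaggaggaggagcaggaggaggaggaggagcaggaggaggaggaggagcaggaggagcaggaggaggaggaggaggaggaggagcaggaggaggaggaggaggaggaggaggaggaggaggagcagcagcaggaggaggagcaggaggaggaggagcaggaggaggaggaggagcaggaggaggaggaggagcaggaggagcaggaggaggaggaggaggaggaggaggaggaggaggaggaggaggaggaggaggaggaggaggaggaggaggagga
Both marks, chr2:33487153-33487452, promoter of Lmx1b: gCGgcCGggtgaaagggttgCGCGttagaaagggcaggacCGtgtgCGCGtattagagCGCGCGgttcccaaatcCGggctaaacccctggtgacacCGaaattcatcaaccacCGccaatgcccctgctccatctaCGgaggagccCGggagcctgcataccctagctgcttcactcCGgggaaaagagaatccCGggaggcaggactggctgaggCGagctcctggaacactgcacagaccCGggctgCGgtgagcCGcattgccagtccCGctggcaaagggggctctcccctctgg
H2AK119ub1 alone, chr4:139380819-139381118, intron near the start of Pax7: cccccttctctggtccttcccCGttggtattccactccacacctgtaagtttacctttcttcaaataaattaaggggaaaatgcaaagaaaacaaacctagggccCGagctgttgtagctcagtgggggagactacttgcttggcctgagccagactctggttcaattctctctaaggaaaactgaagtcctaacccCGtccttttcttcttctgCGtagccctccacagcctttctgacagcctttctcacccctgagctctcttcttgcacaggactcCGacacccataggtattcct
The Lmx1b stretch held 22 CG dinucleotides and had a GC content of 63.7%. A stretch taken in the same way from the overlap at the Six3 promoter, not printed, held 2 CG and had a GC content of 48.7%. The first 4 stretches also differed from Lmx1b. The shared H2AK119ub1 peak held long TC repeats and 2 CG. The printed H3K27me3 peak with H2AK119ub1 held CA and TC repeats and 5 CG, and the printed H3K27me3 peak alone was made of GGA repeats and held 0 CG. The peaks of the first 4 stretches were not in all classes the highest outright, with −log10 p-values of 49.1, 53.2 and 41.8 in the last 3 classes against class maxima of 84.9, 82.3 and 41.9. The printed H2AK119ub1 peak alone, with 3 CG, lay in the region of Gm10925 and Gm10222 on chromosome 1, genes whose sequence has a close copy in the mitochondrial genome, so its reads could belong to either.

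A set of peaks in the H2AK119ub1 list of PCGF5-depleted ES stood apart from the rest and touched the class alone. Among the 100 H2AK119ub1 peaks alone with the highest score, 18 lay at least 90% inside annotated exons, against 2 of 100 of the shared class, while over the full classes the shares were 8.22% and 11.1%. In wild type ES the corresponding top 100 held 6 and 2 such peaks. H3K27me3 peaks alone held 20 of 100, against 4 of 100 in wild type ES. Many of the leading H2AK119ub1 peaks lay on exons of genes of the intestinal epithelium, such as 2210415F13Rik with a fold enrichment of 21.3, the antimicrobial lectin gene Reg3b with 21.4, the lectin gene Zg16 with 15.3 and the carbonic anhydrase gene Car1 with 11.2. Of 50 genes of that tissue, listed after 7 of them had been seen at the top, 17 had a peak that touched an exon in H2AK119ub1 of PCGF5-depleted ES, and 10 of these were among the 43 genes not seen first. Over all 22232 protein-coding genes, 814 (3.66%) had an H2AK119ub1 peak touching an exon in this list. Among the 10 intestinal genes not seen first were the mucin gene Muc2 with a fold of 5.52, Tff3 with 4.97 and Krt8 with 4.80. All 30 peaks at the 17 intestinal genes were H2AK119ub1 alone. The other 9 lists had between 0 and 4 of the 50 genes, with 4 in H2AK119ub1 of wild type ES and 2 in H3K27me3 of PCGF5-depleted ES. A further 6 H2AK119ub1 peaks alone lay on the mitochondrial genome. With peaks at least 90% inside exons left out, the shares, gaps and gene counts of the classes stayed within their intervals or, for gene counts, within 1.5 times. Whether the exonic and mitochondrial peaks stand for the mark in chromatin or for DNA of another origin was not tested, and the folds of these genes are given with that doubt.

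The marks overlapped in a minority of the peaks of either list. H3K27me3 overlapped 27.6% (26.6 to 28.6) of the H2AK119ub1 peaks, and H2AK119ub1 overlapped 18.4% (17.6 to 19.1) of the H3K27me3 peaks. In wild type ES, measured the same way, the shares were 38.8% (37.8 to 39.8) and 27.4%. Counting peaks up to 1000 bp apart gave 46.1% and 33.8% in PCGF5-depleted ES, and an overlap over 50% of the peak gave 21.2% and 11.4%. The 2063 overlapping pairs shared 0.575 Mb, which was 27.5% of the bases under H2AK119ub1 and 15.0% of the bases under H3K27me3. Where they met, the overlap was broad. It covered a median of 217 bp, or 88.6% of the H2AK119ub1 peak and 60.5% of the H3K27me3 peak, and the peak centres lay a median of 129 bp apart. An H2AK119ub1 peak lay wholly within an H3K27me3 peak in 810 cases (41.0% of 1977), while the reverse held for 194 H3K27me3 peaks (10.3% of 1881). Over the 2063 pairs the fold enrichments of the marks had a Spearman correlation of 0.02, against 0.39 over 3526 pairs in wild type ES. The pairs share their libraries and their base composition, so these are descriptions.

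Many peaks called alone lay close to a peak of the other mark. The median H3K27me3 peak alone lay 23624 bp from the nearest H2AK119ub1 peak. The median H2AK119ub1 peak alone lay 9590 bp from the nearest H3K27me3 peak, and 1326 of these 5193 (25.5%) lay within 1000 bp. At promoters, defined as a peak centre within 2500 bp of the start of a protein-coding transcript, the H2AK119ub1 median was 987 bp and 50.1% lay within 1000 bp. Outside promoters it was 20072 bp and 16.6%. H3K27me3 peaks alone showed no such split, with a median distance of 28681 bp at promoters and 20403 bp outside them, and 20.9% and 16.9% within 1000 bp. Thus the H2AK119ub1 peaks alone at promoters were often beside H3K27me3, and those elsewhere less often.

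**Figure D1:**
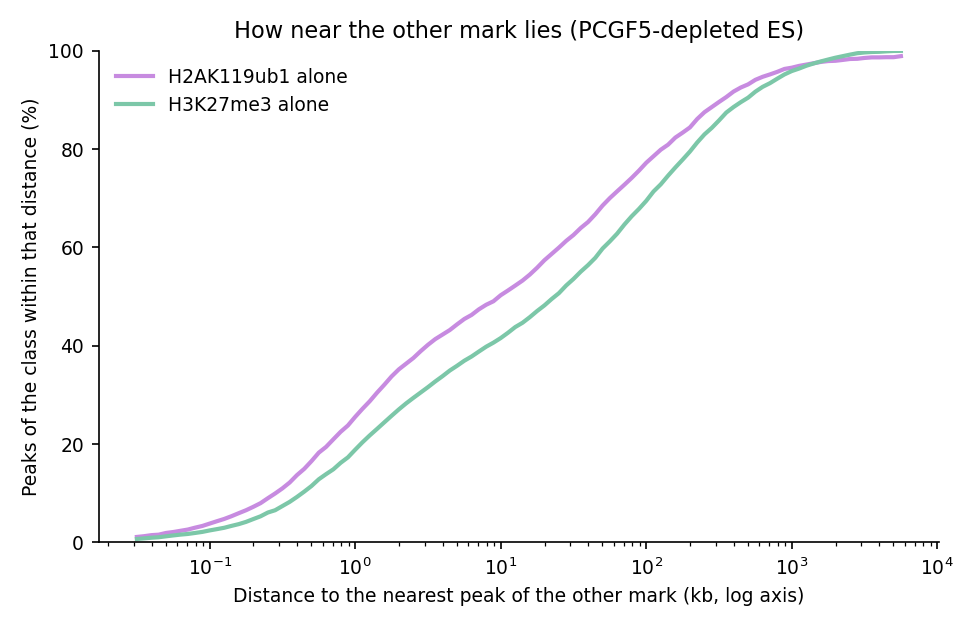
Cumulative percent of the peaks called alone in PCGF5-depleted ES (y axis) that lie within a given distance of the nearest peak of the other mark (x axis, kb, log scale), with 1 line for H2AK119ub1 alone and 1 for H3K27me3 alone. The H2AK119ub1 line runs higher up to several 100 kb, with medians of 9590 bp for H2AK119ub1 and 23624 bp for H3K27me3.

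Over the full lists, H2AK119ub1 peaks without H3K27me3 were less often at promoters than those with it. Of the shared H2AK119ub1 peaks, 851 (43.0%) were at promoters, 85 (4.30%) in exons, 380 (19.2%) in introns and 661 (33.4%) between genes. Of those alone, 1386 (26.7%) were at promoters, 247 (4.76%) in exons, 1392 (26.8%) in introns and 2168 (41.8%) between genes. The promoter shares differed by 16.4 percentage points (13.9 to 18.9). Among the higher-scoring 50% of each list the gap was 3.33 points (-0.0766 to 6.83), an interval that includes 0, and with a promoter window of 1000 bp it was 10.5. The wild type ES values were 42.0% and 22.6%, with 35.2% of the peaks alone in introns. The gap of H3K27me3 over the full lists was small and in the other direction. Its promoter share was 44.9% (845 peaks) with H2AK119ub1 and 48.9% (4082 peaks) alone, a difference of -3.95 points (-6.42 to -1.45). In the higher-scoring 50% it was -16.3 points (-19.7 to -12.7) and with an overlap of at least 50% it was -11.9, while merging peaks turned it to 2.74 (-0.147 to 5.63). Between 16.6% and 17.2% of both classes were in introns. The most numerous class at promoters was therefore H3K27me3 without H2AK119ub1.

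**Figure D2:**
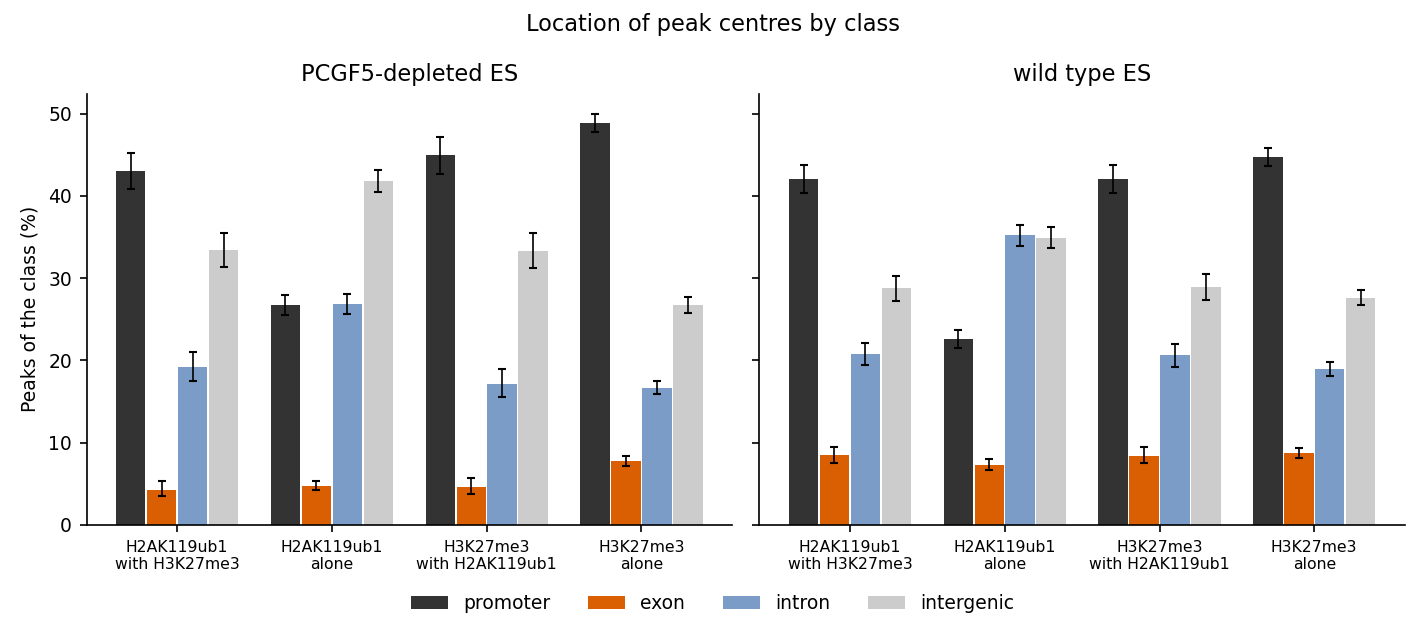
Percent of the peaks of each class (y axis) at promoters, in exons, in introns and between genes, for the 4 classes of PCGF5-depleted ES (left) and wild type ES (right), with 95% Wilson intervals as error bars. H2AK119ub1 alone is the class with the lowest promoter share, at 26.7% in PCGF5-depleted ES and 22.6% in wild type ES.

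Many shared peaks lay in a few places. The 5 windows of 1 Mb chosen for holding the most shared H2AK119ub1 peaks had 312 of the 1977 (15.8%), and also 121 of the 5193 alone (2.33%), a contrast that the choice of windows favours. The densest run, chr6:114444451-114587398 between Hrh1 and Atg7, held 124 H2AK119ub1 and 143 H3K27me3 peaks in 142.9 kb. It was as dense in wild type ES, with 145 and 138 peaks, held 98 and 129 in PCGF5-depleted NPC, and held 12 and 49 in wild type NPC. A run at chr8:126061343-126148053 between Gas8 and Rhou held 79 H2AK119ub1 and 35 H3K27me3 peaks that covered 71.3% and 92.5% of its bases. There the median fold of H2AK119ub1 was 3.50, against 7.70 in wild type ES, and that of H3K27me3 was 9.44, against 8.15. Another, chr6:47687092-47728198 between Ezh2 and Pdia4, held 31 and 23 peaks. In the Hoxa cluster, chr6:52128805-52215347, H2AK119ub1 made 56 peaks, of which 22 were shared, and in the Hoxb cluster, chr11:96141134-96179455, it made 36, of which 13 were shared. Leaving out the 5 windows raised the promoter gap of H2AK119ub1 to 23.0 points and brought that of H3K27me3 to 0.160 (-2.48 to 2.81).

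Shared peaks were wider than peaks alone. The median width of H2AK119ub1 was 293 bp (285 to 304) with H3K27me3 and 203 bp (200 to 207) alone, and that of H3K27me3 was 383 bp (371 to 398) with H2AK119ub1 and 285 bp (281 to 288) alone. The differences were 90 bp (81.1 to 101.4) and 98 bp (85.6 to 113.5), and in wild type ES 83 and 118 bp. Merging peaks within 1000 bp raised them to 172 and 497.5 bp, and an overlap over 50% of the peak lowered the second to 45.5 bp. A wide peak offers more bases for an overlap. With the peaks ranked by width into 5 equal parts, 12.8% of the narrowest H2AK119ub1 peaks (140 to 155 bp) and 53.8% of the widest (356 to 4312 bp) met H3K27me3, and for H3K27me3 the share with H2AK119ub1 went from 9.23% to 34.5%. The same rise was seen along the −log10 p-value of the peak, from 19.5% to 45.4% for H2AK119ub1 and from 10.1% to 36.9% for H3K27me3.

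Fold enrichment over local background (column 7, read as such from its place in the peak caller's layout) hardly separated the classes. Its median for H2AK119ub1 was 3.90 (3.82 to 3.94) with H3K27me3 and 4.05 (4.00 to 4.07) alone, a difference of -0.145 (-0.226 to -0.0841) that was -0.497 in the higher-scoring 50% of each list and -0.0398 without the 5 crowded windows described above. The order was the opposite in wild type ES, where the shared peaks had a median of 5.02 and those alone 4.30. For H3K27me3 the medians were 5.33 (5.07 to 5.45) and 5.07, a difference of 0.259 whose interval began at 0. Values of H3K27me3 were tied in many peaks, and 5.065 was a common one. The highest folds were 16.2 and 21.4 in the H2AK119ub1 classes with and without H3K27me3, and 20.5 and 16.6 in the H3K27me3 classes with and without H2AK119ub1.

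**Figure D3:**
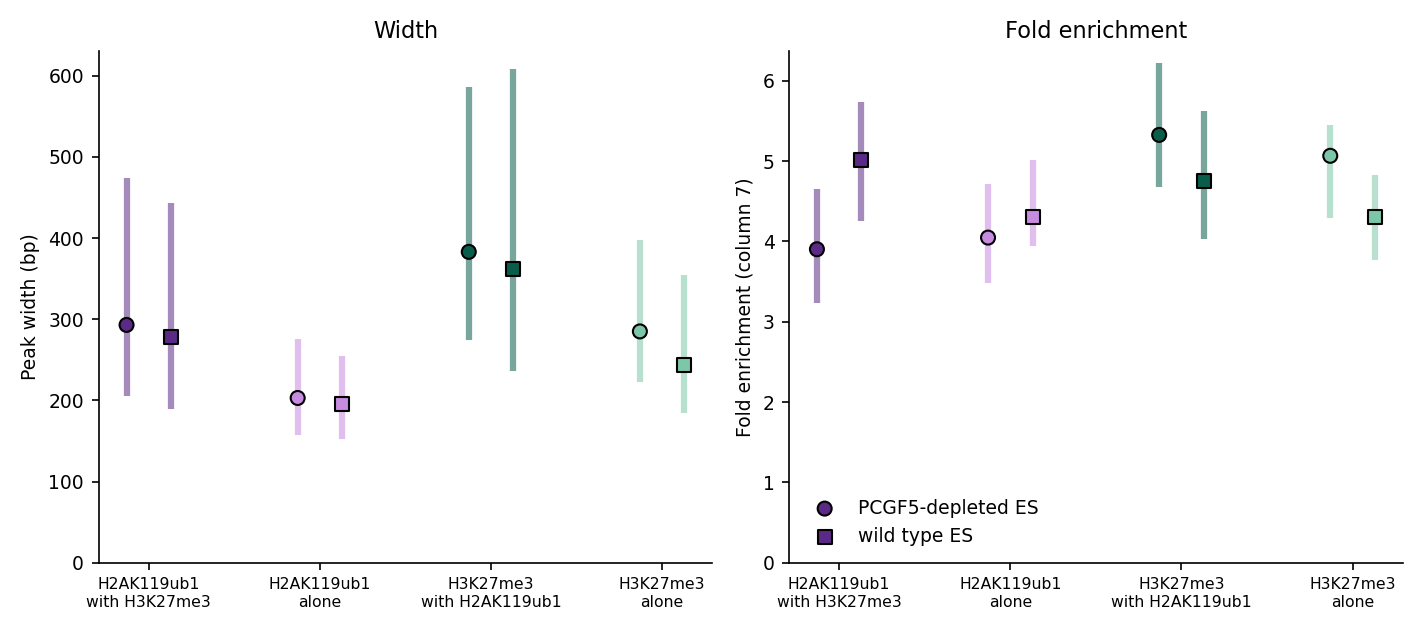
Peak width in bp (left) and fold enrichment, column 7 (right), of the 4 classes, with the median as a circle for PCGF5-depleted ES and a square for wild type ES and a bar over the middle 50% of the peaks. Widths are larger in the shared classes (medians of 293 against 203 bp and of 383 against 285 bp in PCGF5-depleted ES), while the H2AK119ub1 fold is higher for shared peaks in wild type ES and not in PCGF5-depleted ES.

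H2AK119ub1 peaks alone were also the class with the fewest CG dinucleotides. Their central 300 bases held a median of 3 CG, against 8 in each of the other 3 classes and 2 in 8733544 tiles of the same length over the genome. At least 10 CG were found in 14.0% of them, in 42.4% of the shared H2AK119ub1 peaks, in 44.0% of the shared H3K27me3 peaks, in 45.9% of the H3K27me3 peaks alone and in 2.17% of the tiles. Median GC content was 53.2% in H2AK119ub1 alone and 57.2% to 58.8% in the others, against 41.7% in the tiles. H2AK119ub1 alone was again lowest when only promoter peaks were taken, with a median of 6 CG against 11, 11 and 12 in the others.

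Repeats of the kind printed above were searched as exact words of 12 bases on both strands. The search covered the 300 bases around each peak centre, which reach beyond narrow peaks and cover wide peaks only in part. The words were GA 6 times in a row (TC on the other strand), GGA 4 times in a row and CA 6 times in a row. The GA word was found in 8.03% (7.32 to 8.80) of H2AK119ub1 peaks alone, 4.80% of those shared, 4.57% of shared H3K27me3 peaks, 2.24% of H3K27me3 peaks alone and 1.98% of the tiles. Among the 100 peaks of highest score the order was the reverse, with the GA word in 6 H2AK119ub1 peaks alone and in 25 of those shared. Over the full class in wild type ES, 2.79% (2.38 to 3.27) of the H2AK119ub1 peaks alone held it. The GGA word was in 4.93%, 5.77%, 6.11% and 2.31% of the classes in the same order, against 0.403% of the tiles, and the CA word in 9.03%, 6.47%, 6.01% and 4.12%, against 4.41%. At most 8 peaks of a class held both the GA and the GGA word. Peaks with either word were mostly away from promoters: 15.2% of these H2AK119ub1 peaks alone and 16.4% of these shared peaks were at promoters, against 28.4% and 46.2% of the peaks without. A match is a description of the bases and not a binding site. Repeats can take reads from many places, and their part in the peak calls was not tested.

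**Figure D4:**
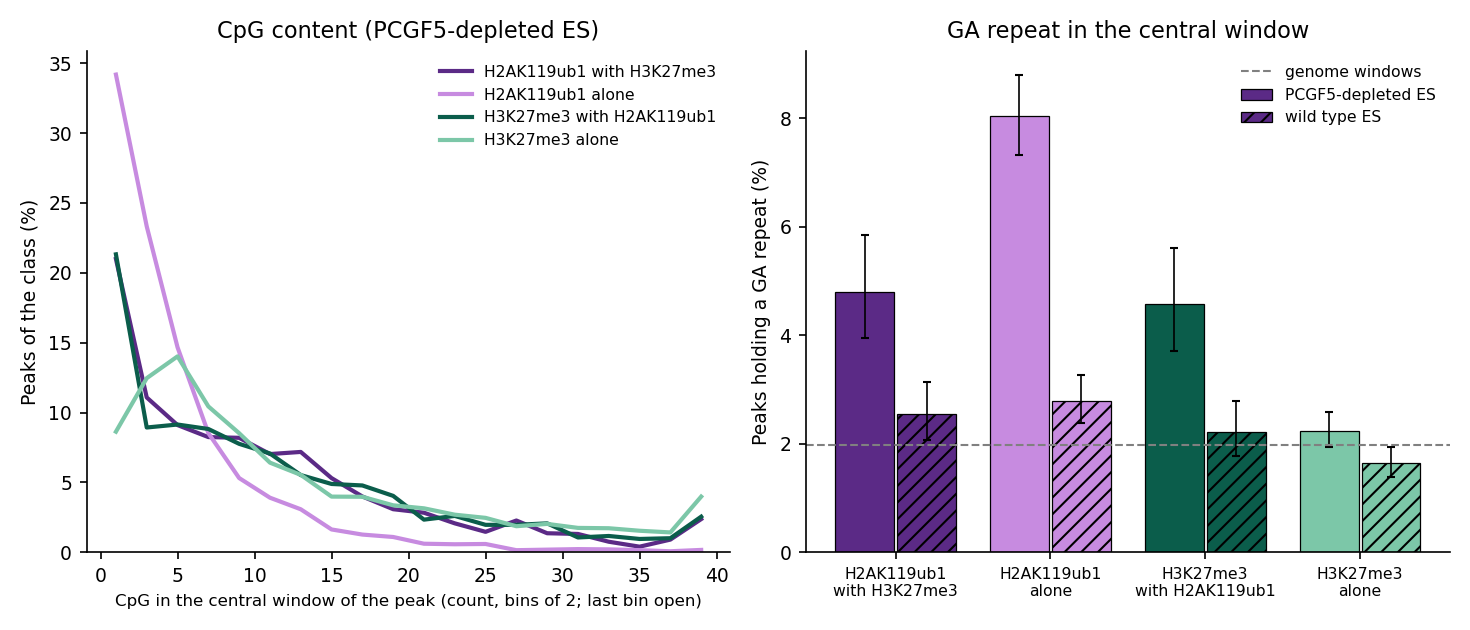
Left, percent of the peaks of each class in PCGF5-depleted ES (y axis) by the number of CG dinucleotides in their central 300 bases (x axis, bins of 2, the last bin open). Right, percent of peaks with the GA word in the same 300 bases, in PCGF5-depleted ES (plain bars) and wild type ES (hatched bars). Error bars are 95% Wilson intervals, and the genome tiles, at 1.98%, are a dashed line. H2AK119ub1 alone has the lowest CG counts and, in PCGF5-depleted ES, the highest share with a GA word, 8.03%, an order that is reversed between the H2AK119ub1 classes among their 100 peaks of highest score.

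Of 22232 protein-coding genes, 971 had both marks at the promoter in PCGF5-depleted ES (4.37%), 353 had H2AK119ub1 and no H3K27me3 (1.59%), and 1901 had H3K27me3 and no H2AK119ub1 (8.55%). The first count depended on the settings, with 452 genes in the higher-scoring 50% of each list and 545 with a promoter window of 1000 bp. Most genes with H2AK119ub1 therefore also had H3K27me3 (971 of 1324, 73.3%), while 33.8% of the 2872 genes with H3K27me3 had H2AK119ub1. The marks often lay side by side in a promoter without touching. In 598 of the 971 genes (61.6%) an H2AK119ub1 peak there overlapped H3K27me3, against 891 of 1187 (75.1%) in wild type ES. Genes with both marks had more of each. The median covered length was 394 bp of H2AK119ub1 and 878 bp of H3K27me3, against 214 bp in genes with H2AK119ub1 only and 412 bp in genes with H3K27me3 only. Lengths were taken over the joined promoter windows of all protein-coding starts of a gene. Genes with several starts can therefore have more covered bases, and rankings by length favour them.

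The promoters with the longest overlap of the marks belonged mostly to transcription factors of development. At Lmx1b, a LIM homeobox gene of midbrain and limb patterning whose CG-rich promoter is printed above, 5 H2AK119ub1 peaks covered 6804 bp and 7 H3K27me3 peaks covered 3401 bp, with 2811 bp under both marks and highest folds of 5.94 and 10.5. Wild type ES had 6186 and 4952 bp there, with 3827 bp under both. At Six3, a homeobox gene of forebrain and eye, the marks covered 5634 and 3621 bp and shared 2505 bp, and at Pax6, the paired-box gene of eye and neural progenitors, they covered 6898 and 5035 bp and shared 2227 bp. Lengths shared in wild type ES were 2567 bp at Six3 and 2158 bp at Pax6, close to those in PCGF5-depleted ES. Muc19, a gel-forming mucin gene, was the exception in function, with 2227 bp of H2AK119ub1 at a fold of 2.56 that lay wholly under 3336 bp of H3K27me3 at a fold of 14.8. In wild type ES the folds at Muc19 were 6.94 and 7.85. The Muc19 peak with the H3K27me3 fold of 14.8 lay wholly inside annotated exons, so the doubt given above for exonic peaks applies to it.

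The remaining genes of the 10 with the longest overlap were Sim2 (1761 bp shared), Dlx1 (1651), Tlx1 (1610), Hoxa9 (1606), Pax9 (1579) and Neurog1 (1565). Dlx1 acts in forebrain interneurons, Tlx1 in the spleen, Hoxa9 along the body axis, Pax9 in the pharyngeal pouches and Neurog1 in sensory neurons. Wild type ES had 1766 bp shared at Sim2, 358 at Dlx1, 1077 at Tlx1, 1018 at Hoxa9, 850 at Pax9 and 695 at Neurog1. All 10 genes had both marks in wild type ES and in PCGF5-depleted NPC as well. With 1 library a condition these lengths could not be compared further.

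Transcription factor families were marked by both marks together. Of 189 genes in 12 lists, 120 had both marks, 8 H2AK119ub1 only and 22 H3K27me3 only, against 4.37%, 1.59% and 8.55% of all genes, and 84.5% (77.7 to 89.5) of their 142 genes with H3K27me3 also had H2AK119ub1. Of 39 Hox genes, the determinants of position along the body axis, 33 had both marks. Hoxd11 had 3514 bp of H2AK119ub1 and 2279 bp of H3K27me3 with 1469 bp shared, Hoxa2 had 1813 bp of H2AK119ub1 and no H3K27me3 peak, and Hoxd1 had 1197 bp of H3K27me3 and no H2AK119ub1 peak. Hoxa2 and Hoxd1 had both marks in wild type ES. All 6 Irx genes, 5 of 6 Dlx genes, 4 of 6 sine oculis homeobox genes (the family of Six3), 9 of 12 LIM homeobox genes and 10 of 14 Nkx genes carried both. Of 9 Pax genes 6 had both marks, while Pax1 had 2216 bp of H2AK119ub1 only. Both marks were also on 5 of 6 GATA genes, 10 of 16 T-box genes, 17 of 43 Forkhead genes and 8 of 14 neural bHLH genes. Gata2, a factor of blood progenitors, had 2004 bp of H2AK119ub1 and 2700 bp of H3K27me3. The Sox list was more divided, with both marks on 7 of 18 genes and H3K27me3 only on 5, among them Sox11 with 1375 bp.

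Signalling genes were split between the classes. Of 103 genes in 5 lists, 31 had both marks, 4 H2AK119ub1 only and 26 H3K27me3 only, against 4.37%, 1.59% and 8.55% of all genes. Of the 57 listed genes with H3K27me3, 54.4% (41.6 to 66.6) also had H2AK119ub1. Wnt ligands were nearest to the transcription factors, with both marks on 14 of 19. Wnt7b had 1995 bp of H2AK119ub1 and 3103 bp of H3K27me3, while Wnt7a had 1110 bp of H3K27me3 only. Of the Notch pathway, which restrains neural differentiation, 5 of 18 genes had both marks and 7 had H3K27me3 only. The target gene Hes3 and the ligand genes Dll1 and Dll4 were among the former, with 887, 812 and 855 bp shared, and the ligand gene Jag1 and the target gene Hes7 among the latter. FGF ligands had both marks on 4 of 22 genes and H3K27me3 only on 7. BMP ligands and antagonists had both on 7 of 20, whereas the BMP antagonist gene Nog had 1441 bp of H3K27me3 only and the ligand gene Bmp4 had 307 bp of H2AK119ub1 only. In the list of the Nodal and TGF-beta pathway, 1 of 24 genes had both marks (4.17%, close to the share of all genes) and 6 had H3K27me3 only. The latter included the ligand gene Tgfb1 with 1277 bp and Lefty1 with 201 bp, the width of the narrowest H3K27me3 peaks.

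Genes of mature cells with a mark had mostly H3K27me3 only, and many had neither. The 5 lists were potassium channels, neurotransmitter receptors, axon guidance genes, clustered protocadherins and collagens. Of their 289 genes, 39 had both marks (13.5%), 7 had H2AK119ub1 only (2.42%) and 89 had H3K27me3 only (30.8%). Over all genes these shares were 4.37%, 1.59% and 8.55%, so H3K27me3 only was the most frequent marked state there too. Of the 128 listed genes with H3K27me3, 30.5% (23.2 to 38.9) also had H2AK119ub1, close to the 33.8% of all genes. Wild type ES shares were 37.7% for these lists, 53.6% for signalling, 77.2% for transcription factors and 39.9% for all genes, so the order was the same. Potassium channel genes had both marks on 18 of 92 and H3K27me3 only on 30, with Kcnk9 (489 bp shared) and Kcnh3 (1966 bp of H3K27me3) as examples. Of 66 axon guidance genes, 10 had both and 24 H3K27me3 only, of 64 receptor genes 6 and 11, of 43 collagen genes 4 and 15, and of 24 clustered protocadherins 1 and 9. Protocadherin promoters share reads with close paralogs, and a gene's count there is uncertain.

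**Figure D5:**
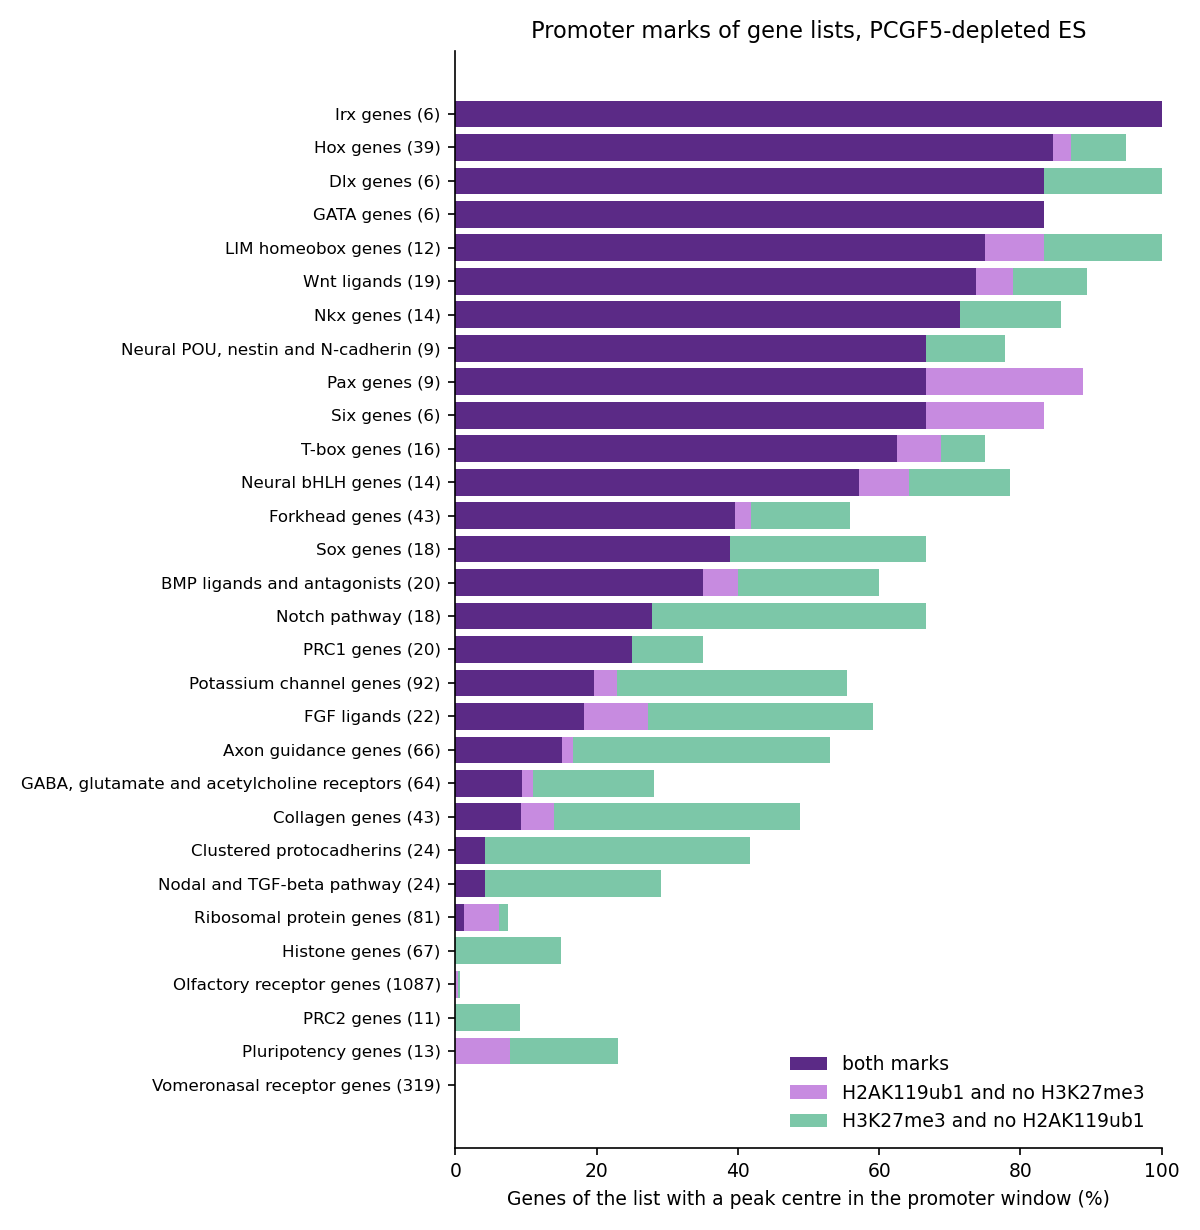
Percent of the genes of each list (x axis, list sizes in brackets) with both marks, H2AK119ub1 only or H3K27me3 only at the promoter in PCGF5-depleted ES, as stacked bars ordered by the share with both. Hox, Irx and Dlx genes are mostly marked by both, while channels, receptors and collagens are marked more often by H3K27me3 only.

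Some genes of the complexes themselves were marked. Of 20 PRC1 genes 5 had both marks. Among them was Cbx8, which encodes an H3K27me3 reader of canonical PRC1, with 2946 bp of H2AK119ub1 that spanned all its 1170 bp of H3K27me3. Cbx2 had 62 bp under both marks. Both were also on Auts2, which encodes a PCGF5 partner, and on Kdm2b, while Yaf2 and Bmi1 had H3K27me3 only. Of 11 PRC2 genes, Phf19 alone was marked, by 1554 bp of H3K27me3. At the promoter of Pcgf5, a gene that spans chr19:36453557-36530682, neither mark had a peak in PCGF5-depleted ES, while wild type ES had 382 bp of H3K27me3. Both marks together were found on 1 of 81 ribosomal protein genes, 0 of 67 histone genes, 0 of 1087 olfactory receptor genes and 0 of 319 vomeronasal receptor genes. H3K27me3 without H2AK119ub1 was on 10 of the histone genes (14.9%), and H2AK119ub1 without H3K27me3 on 4 of the ribosomal protein genes (4.94%). Over all protein-coding genes the shares were 4.37% for both marks, 1.59% for H2AK119ub1 only and 8.55% for H3K27me3 only. In lists as short as those of ribosomal protein and histone genes, a count of both marks near 0 says little.

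Among genes with H2AK119ub1 only, the highest folds were at the genes with the exonic peaks of uncertain origin and at genes with close copies. They were the intestinal genes Reg3b, Zg16 and Reg3g, with folds of 21.4, 15.3 and 12.4, the ribosomal pseudogene Rps26-ps1 with 10.6, Naip2 with 8.37, Gm10073 with 8.23, Reps2 with 7.97, and Gm10222 and Gm10925, which share a peak of 7.67. Wild type ES and PCGF5-depleted NPC had neither mark at these promoters except for Naip2, which had both in wild type ES. Naip2, the pseudogenes and the mitochondrial-like genes have near-identical copies, and their reads could belong to those. Of the 353 genes, 13 were on the mitochondrial genome. Lower in fold, members of the transcription factor lists were in this class with wide coverage, such as Pax1, Hoxa2 and Lhx8 with 1056 bp.

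H3K27me3 only had its highest fold at Id3, an inhibitor of bHLH factors and target of BMP signalling, where 2 peaks covered 576 bp at a fold of up to 16.6. Id3 had neither mark in wild type ES and both in PCGF5-depleted NPC. Its peak of highest fold lay wholly inside annotated exons, and the doubt given above for exonic peaks applies to it. Next came Gm6576 with 15.1, at a peak that also lay wholly inside exons. After it came the histone genes Hist1h2ap, Hist1h2br and Hist1h4n, which share a peak of 10.9, and Hist1h2ao, Hist1h2bq and Hist1h4m, which share another of 10.1. These histone genes have near-identical copies and none had a peak in wild type ES. The Fc receptor gene Fcgr3 with 10.8, the divergent pair Bccip and Uros with 10.5 and E030030I06Rik with 10.4 had H3K27me3 without H2AK119ub1 here and both marks in wild type ES. Pgp closed the list with 9.97 and was unmarked in wild type ES.

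Outside promoters the widest peaks of the shared classes lay near Gas8, Rhou and Ezh2. The widest of H3K27me3 was chr8:126133624-126143694, 10071 bp wide, and the widest of H2AK119ub1 was chr8:126073263-126077574, 4312 bp wide, both in the run between Gas8 and Rhou. The following shared H2AK119ub1 peaks, of 2817 and 2780 bp, lay at chr6:47615178-47617994 and chr6:47623838-47626617 on the side of Ezh2, and the following shared H3K27me3 peaks, of 6213 and 5303 bp, at chr8:126115761-126121973 and chr8:126066819-126072121. The 3 widest H2AK119ub1 peaks alone had developmental genes as their nearest. The first, chr4:139379619-139382317, 2699 bp with a fold of 4.30, lay in an intron 7954 bp from the start of the muscle and neural crest gene Pax7, and the next at chr11:96149366-96151087 in the Hoxb cluster and at chr19:43674431-43675848, 11676 bp from Nkx2-3. H3K27me3 peaks alone were widest at chr17:39980025-39983275, 3251 bp with a fold of 3.40, which lay 363904 bp away from any protein-coding start. The following ones were chr6:100416891-100418811, 1921 bp with a fold of 8.15 at 180416 bp from Rybp, and chr5:26333267-26335037, 1771 bp at 2814 bp from Gm1979.

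Markers of cell type were compared with the labels. Over all protein-coding genes, 85.5% had neither mark, 4.37% both, 1.59% H2AK119ub1 only and 8.55% H3K27me3 only. Of 13 annotated markers of ES, 10 had neither mark, among them Pou5f1, Nanog and Sox2. Esrrb and Lin28a had H3K27me3 only and Dppa3 had H2AK119ub1 only. Unmarked promoters were thus no more frequent among ES markers than among all genes, and this count says little on cell type. Of 7 markers of neural precursors, 4 had both marks (Pax6, Nes, Pou3f2 and Zic1) and 3 had neither, and of 8 markers of other lineages 7 had both and Myod1 had H3K27me3 only. Of 7 fibroblast markers, which would stand for feeder cells, Prrx1 had both marks, Col1a1, Col1a2, Thy1 and Twist1 had H3K27me3 only, and 2 had neither. A peak list does not tell how many feeder cells were present, and their part in the peaks was not tested.

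The classes differed in how often wild type ES had a peak at the same place. Among shared H2AK119ub1 peaks of PCGF5-depleted ES, 62.5% overlapped an H2AK119ub1 peak of wild type ES, 67.9% an H3K27me3 peak, 52.0% both and 21.6% neither. For H2AK119ub1 peaks alone these were 18.5%, 16.5% and, for neither, 73.8%. H3K27me3 peaks alone overlapped H3K27me3 of wild type ES in 35.6% and H2AK119ub1 in 12.6%. Shared peaks were wider, which alone gives them more bases to be overlapped. By gene, 628 of the 971 with both marks (64.7%) had both in wild type ES, 235 (24.2%) had H3K27me3 only, 24 had H2AK119ub1 only and 84 had neither. Of the 353 genes with H2AK119ub1 only, 226 (64.0%) had neither mark in wild type ES and 23 had H2AK119ub1 only there. Of the 1901 with H3K27me3 only, 870 (45.8%) had the same in wild type ES, 376 (19.8%) had both and 603 (31.7%) had neither. The class of genes with both marks was thus mostly shared with wild type ES, and that with H2AK119ub1 only mostly was not.

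In PCGF5-depleted NPC, H3K27me3 was found at 80.3% of the places of shared H2AK119ub1 peaks and at 32.6% of those alone, and H2AK119ub1 at 39.2% and 11.2%. H3K27me3 peaks alone overlapped an H3K27me3 peak there in 43.1%, against 80.7% of the shared ones. The Flag-PCGF5 list of wild type ES held only 653 peaks, against 12013 in NPC, which limits how many peaks it can touch. It touched 8 (0.405%) of the shared and 3 (0.0578%) of the alone H2AK119ub1 peaks. Of the H3K27me3 peaks it touched 8 shared (0.425%) and 22 alone (0.263%). Counts from so short a list do not show that PCGF5 was absent from these places. Flag-PCGF5 of NPC touched 5.16% and 3.35% of the H2AK119ub1 classes and 5.26% and 5.66% of the H3K27me3 classes.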

How the data were processed

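ChIP-seq peak lists of 10 of 16 libraries were used; the 6 input libraries were not analysed here. As the study's methods state, micrococcal nuclease and light fixation were used for both histone marks, and the chromatin for Flag-PCGF5 was crosslinked and sonicated. Reads were trimmed, aligned to mm9 and freed of duplicates with Picard. The submitters' processing notes name Bowtie2, MACS2 2.1.0 and bedtools. Peaks were called in each library on its own, so list length and peak width depend on depth and background, and no read totals came with the lists. The authors deposited for each peak a score (10 times the −log10 p-value), a fold enrichment over local background (a ratio), a −log10 p-value, a −log10 q-value and the position of the summit. The lists have no header, and the meaning of the columns, fold included, was read from their order in the narrowPeak layout.

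Groups came from the sample labels. Overlaps (at least 1 bp), distances, locations (promoter within 2500 bp of a protein-coding start, otherwise exon, intron or intergenic by the peak centre) and base composition were computed with Python 3.11.15, numpy 2.4.6, pandas 2.3.3, scipy 1.17.1, matplotlib 3.10.9 and bedtools 2.31.1 on NCBIM37 with GENCODE M1. Shares carry 95% Wilson intervals and medians 95% binomial intervals. The overlap and location code was tested on simulated data, and overlap counts were checked with bedtools. Genes were named by rule: those with the most bases under both marks, and those with the highest fold among genes with 1 mark only. Pathway examples were the members with the most covered bases in each class, with further members named after their values were seen. The classes, 30 gene lists and alternatives were chosen with earlier results of these data known; the grouping of lists, the intestinal genes, repeat words and crowded windows were chosen after seeing the data. Some members of the lists are not reported here by name.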

Additional observations from a re-analysis of the deposited data

Results flagged for a closer look

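In 3 values the difference between PCGF5-depleted and wild type cells had one sign in ES and the other in NPC. The promoter share of H2AK119ub1 peaks with H3K27me3 minus that of H2AK119ub1 peaks alone was 16.4 points in PCGF5-depleted ES and 19.5 in wild type ES, a difference of -3.12, while in NPC it was 35.3 and 26.8, a difference of 8.59. The same gap for H3K27me3 peaks differed by -1.25 points in ES and by 12.1 in NPC. The extra median width of shared H2AK119ub1 peaks over those alone differed by 7 bp in ES and by -42 bp in NPC. With 1 library per group the difference between ES and NPC was not tested.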

How the results depend on the processing

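In all, 112 values were recomputed for 11 results under 12 settings. Of these, 70 did not change sign and stayed within their interval (counts of genes within 1.5 times), 39 moved and 3 changed sign. The 70 include values of the H3K27me3 fold gap, 0.259 with an interval from 0, that fell to 0. This happened with peaks up to 1000 bp apart, with the same number of peaks in both lists and without GA or GGA words. Requiring 50% of a peak to be covered by the other mark lowered the share of H2AK119ub1 peaks with H3K27me3 to 21.2% and of H3K27me3 peaks with H2AK119ub1 to 11.4%, the promoter gaps to 11.1 and -11.9 points, the width gaps to 66 and 45.5 bp and the H2AK119ub1 fold gap to -0.258. Counting peaks up to 1000 bp apart gave 46.1% and 33.8%, promoter gaps of 28.9 and 1.49 points, the latter with its sign changed, and width gaps of 75 and 61 bp. The higher-scoring 50% of each list gave 26.0% and 16.9%, promoter gaps of 3.33 (-0.0766 to 6.83, so 0 is included) and -16.3, width gaps of 147 and 118 bp, a fold gap of -0.497 and 452 genes with both marks. The same number of peaks in both lists gave 23.2% and 21.5% and promoter gaps of 12.1 and -7.83. Merging peaks within 1000 bp gave 25.5% and 19.2%, promoter gaps of 26.3 and 2.74, the latter with its sign changed, and width gaps of 172 and 497.5 bp. A promoter window of 1000 bp gave gaps of 10.5 and -8.48 and 545 genes with both marks. Chosen after seeing the data, leaving out the 5 crowded windows gave 24.7% and 16.6%, promoter gaps of 23.0 and 0.160, the latter with its sign changed, a width gap of 79 bp and a fold gap of -0.0398 for H2AK119ub1, and leaving out peaks with a GA or GGA word gave 17.1% for H3K27me3 and a promoter gap of -1.38. A q-value under 0.05, chromosomes 1 to 19, any base of the peak in the promoter window and removal of exonic peaks moved none of these results. The cause was not tested. No paired analysis was possible because each group had 1 library. Depth was unknown, and a mark below the calling threshold is not shown to be absent.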
